A study of Mus musculus with 35 samples.

Results

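Cyclins, kinases, inhibitors and pocket proteins of the G1 phase were followed through loss and return of Chtop, an RNA-binding protein of the TREX mRNA export complex, in mouse N2a neuroblastoma cells. The set holds 10 genes of 54393 in the deposited RPKM table (read numbers divided by transcript length and by library size): the D-type cyclins Ccnd1, Ccnd2 and Ccnd3, the kinases Cdk4 and Cdk6, the inhibitors Cdkn1b and Cdkn2c, and the pocket proteins Rb1, Rbl1 and Rbl2. Of these, 8 are among the 9239 genes of the deposited count table, and Ccnd2 and Cdk6 are not. The genes were listed by name for their place in the pathway, with earlier results of these data known. Ccnd3 was picked because its nuclear share fell after knockdown, so its nuclear and cytoplasmic changes are given as a description with no test. Its change in total lysate was tested, in other libraries that hold an aliquot (20%) of the same cultures. That test is not independent of the choice, and Ccnd3 is counted among the 8 members in total lysate. Counts and medians over the members, and over the gene lists used below, are not independent of these data either.

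Poly(A) RNA came from 35 libraries: 2 N2a Flp-In rtTA lines, 3 conditions and 3 fractions (total lysate, nuclei and cytoplasm), with 2 biological replicates in each of 18 groups except 1 group of 1 library. Both lines carry a FLAG-Chtop cDNA that resists the siRNA and is switched on by doxycycline, without exon 5 in the mEx5 line and with it in the pEx5 line, and the labels do not say whether a line is a single clone. Control cells received a non-targeting siRNA pool and knockdown cells 1 Chtop siRNA product, both without doxycycline. Rescue cells received the Chtop siRNA and doxycycline from the medium change at 24 h, and all cells were harvested at 72 h. Doxycycline was never combined with the non-targeting pool, so what it does alone cannot be told apart from rescue.

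D-type cyclins bind CDK4 or CDK6, and the active kinase phosphorylates RB1 and its relatives RBL1 (p107) and RBL2 (p130), which then release E2F factors and let genes for S phase be transcribed. CDKN2C (p18) binds CDK4 and CDK6 and blocks them, and CDKN1B (p27) holds back cyclin E and CDK2 while it can also ride on cyclin D complexes. RBL1 and RBL2 join E2F4 or E2F5 in the DREAM complex, which keeps cell cycle genes off in resting cells. In neuroblastoma, D-type cyclins and CDK4 are known for high activity, and p27 for its rise when the cells leave the cycle and differentiate.

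Printed here are the promoters of the 4 members that changed in total lysate after knockdown, 3 higher and 1 lower. That of Rbl1, which rose in nuclei and cytoplasm but not in total lysate, is added. The set of RefSeq promoters used (GRCm38.p6, the assembly that mm10 names) spans 250 bases before to 50 after a start. It holds 7 of the 10 genes, with Ccnd1, Ccnd2 and Rb1 not among them. The letters in capitals are E-boxes (CACGTG, a palindrome bound by MYC and MAX) and E2F-type words on either strand (TTGGCGC as the first form searched, TTCGCGC as the second, TTCCCGC as the third and TTGCCGC as the last). No 2 matches overlapped.
Cdk4 (chr10:127063285-127063584, plus strand): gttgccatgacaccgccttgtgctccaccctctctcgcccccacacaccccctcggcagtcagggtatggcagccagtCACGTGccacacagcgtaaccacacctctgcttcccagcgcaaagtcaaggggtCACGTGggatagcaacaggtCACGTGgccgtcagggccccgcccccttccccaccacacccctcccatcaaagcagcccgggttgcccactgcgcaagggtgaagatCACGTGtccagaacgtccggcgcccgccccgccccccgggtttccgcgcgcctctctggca
Cdkn2c, first listed start (chr4:109666707-109667006, minus strand): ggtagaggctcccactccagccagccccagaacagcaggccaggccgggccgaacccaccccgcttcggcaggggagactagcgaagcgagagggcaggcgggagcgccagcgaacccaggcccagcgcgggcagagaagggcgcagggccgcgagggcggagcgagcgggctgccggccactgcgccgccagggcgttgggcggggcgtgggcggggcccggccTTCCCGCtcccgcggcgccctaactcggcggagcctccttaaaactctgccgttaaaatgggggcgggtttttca
Rbl1 (chr2:157204485-157204784, minus strand): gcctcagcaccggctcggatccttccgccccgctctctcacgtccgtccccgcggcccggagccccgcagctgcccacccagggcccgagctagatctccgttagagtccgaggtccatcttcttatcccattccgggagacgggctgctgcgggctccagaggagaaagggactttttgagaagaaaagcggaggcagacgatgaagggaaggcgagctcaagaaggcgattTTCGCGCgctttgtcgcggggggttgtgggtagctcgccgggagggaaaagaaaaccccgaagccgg
Cdkn1b (chr6:134920151-134920450, plus strand): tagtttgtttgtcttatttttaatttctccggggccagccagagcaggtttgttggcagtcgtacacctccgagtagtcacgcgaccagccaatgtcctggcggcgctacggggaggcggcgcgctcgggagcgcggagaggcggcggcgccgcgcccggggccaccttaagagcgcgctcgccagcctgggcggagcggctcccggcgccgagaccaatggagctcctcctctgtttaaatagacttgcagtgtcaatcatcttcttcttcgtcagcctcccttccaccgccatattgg
Ccnd3, outer start (chr17:47504801-47505100, plus strand): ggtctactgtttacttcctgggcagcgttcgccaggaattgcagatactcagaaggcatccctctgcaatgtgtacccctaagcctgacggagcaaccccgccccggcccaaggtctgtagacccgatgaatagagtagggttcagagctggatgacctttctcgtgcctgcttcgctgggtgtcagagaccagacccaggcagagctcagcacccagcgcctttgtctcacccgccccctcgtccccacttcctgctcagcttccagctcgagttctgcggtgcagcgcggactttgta
Ccnd3, inner start (chr17:47593217-47593516, plus strand): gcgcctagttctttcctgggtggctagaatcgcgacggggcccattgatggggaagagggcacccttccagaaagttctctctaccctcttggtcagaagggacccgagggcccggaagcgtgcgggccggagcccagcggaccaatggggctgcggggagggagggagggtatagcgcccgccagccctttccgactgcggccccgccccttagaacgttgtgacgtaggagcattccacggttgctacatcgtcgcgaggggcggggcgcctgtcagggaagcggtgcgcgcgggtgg

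Cdk4 had 4 E-boxes, and 7.15% of all 32851 promoters of that length had at least 1. Cdkn2c and Rbl1 each had 1 E2F-type word, found in 9.57% of all promoters, ending 19 and 11 bases before the start. The second listed Cdkn2c promoter (chr4:109665323-109665622), not printed, had no E2F-type word and 1 E-box. The printed promoters of Ccnd3 and Cdkn1b had neither. Of promoters not printed, that of Rbl2, which fell in nuclei, also had neither, and that of Cdk6, near 0 RPKM, had 1 E-box. A match is a run of letters and says nothing of binding in these cells. The first Cdkn2c promoter had a GC content of 73.3%, Cdk4 67.0%, Rbl1 64.0%, Cdkn1b 62.0% and Ccnd3 59.3% and 67.0%, against a median of 52.7% over all promoters.

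Depth was 20652832 to 36102129 counts per library in total lysate, 11681781 to 28705620 in nuclei and 19478702 to 40105458 in cytoplasm. Chtop fell 5.13-fold in total lysate after knockdown (log2 fold change -2.36, edgeR adjusted p = 3.6e-06), and every rescue library lay above every control library of its fraction. Cells matched their neuroblastoma label: Phox2a, Hand2, Tubb3 and Stmn2 had median RPKM of 220, 201, 574 and 248, though Th and Dbh had medians of 0.56 and 0.62. Of markers of other cells, Aqp4 and Mog were listed at 0 in all 35 libraries and Col3a1 in 33, while Mbp had 1.81 to 4.95 RPKM, Pdgfra 0.74 to 1.42, Cd68 up to 10.6 and Gfap up to 2.25. In total lysate the summed RPKM of the 4 astrocyte and oligodendrocyte markers was 4.2 to 4.87 in control, 2.54 to 3.23 in knockdown and 2.69 to 3.74 in rescue, that of the 7 fibroblast markers 1.37 to 1.86, 1.25 to 1.98 and 1.57 to 1.97, and that of the 5 blood cell markers 1.14 to 2.15, 1.22 to 1.92 and 1.6 to 1.89. The summed RPKM of 13 neuroblastoma markers was 2000 to 2170 in control and 1543 to 1808 in knockdown total lysate, and 1481 to 1746 in rescue. The part of these sums in the results below was not tested. Replicates are called biological in the labels.

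Cdk4 was the most abundant member, as length-scaled levels show. In control total lysate (n = 4 libraries) Cdk4 held 398 ± 29.97 RPKM (mean ± SD), Cdkn1b 60.3 ± 1.51, Ccnd3 55.2 ± 2.61 and Ccnd1 54.3 ± 2.95. Cdkn2c followed at 12.5 ± 0.585, Rb1 at 8.16 ± 1.15, Rbl1 at 6.21 ± 0.812 and Rbl2 at 4.64 ± 0.378. The ranges of Ccnd3 and Ccnd1 overlapped, as did those of Rb1 and Rbl1, and the other neighbours in this order did not overlap. Ccnd2 and Cdk6 were near 0: over 35 libraries Ccnd2 had a median of 0.03 RPKM and a highest value of 0.07, and Cdk6 a median of 0 and a highest value of 0.18. Ccnd2 was listed at 0 in 11 libraries and Cdk6 in 25. Both lay under the filter of 0.1 mean RPKM set for a test, so no test was made.

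**Figure D1:**
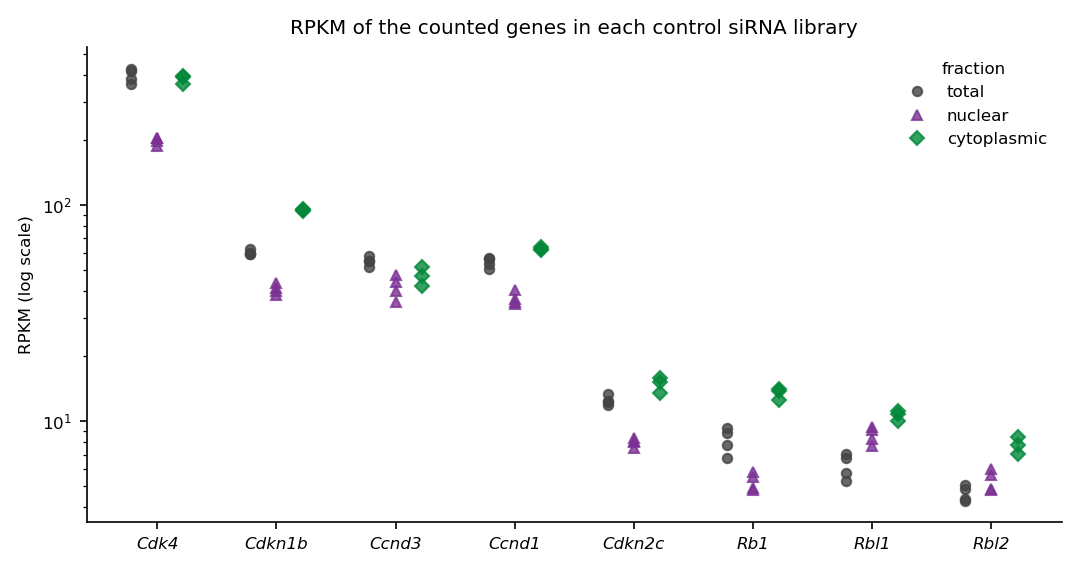
Level of each counted gene (x axis) in RPKM (y axis, log scale) in every control siRNA library, with circles for total lysate, triangles for nuclei and diamonds for cytoplasm. Cdk4 stands highest in all fractions, Ccnd1, Ccnd3 and Cdkn1b lie between 34.7 and 96.0, and the pocket proteins are lowest with Cdkn2c just above them in total lysate.

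Across control cells (n = 4 nuclear and 3 cytoplasmic libraries), 5 of the 7 members tested were lower in nuclei than in cytoplasm and 0 higher, where 36.1% of 9239 genes were called lower and 33.8% higher. The median log2 ratio of the 7 was -0.45, against -0.03 over all genes. Rb1 stood lowest, at -0.94 (1.92-fold, SE 0.10, edgeR adjusted p = 8.2e-07), and Cdkn1b next at -0.81 (1.76-fold, SE 0.074, edgeR adjusted p = 1.1e-07). Cdk4 had -0.53, Cdkn2c -0.45 and Ccnd1 -0.38. Rbl1 had 0.11 (95% interval -0.07 to 0.29) and Rbl2 -0.14 (-0.40 to 0.12), neither called. The value of Ccnd3, whose choice touched these libraries, was 0.23 and is a description. A level here is relative to the other RNAs of the fraction, so the ratio is not a share of molecules per cell. Nuclei and cytoplasm of a culture share cells, and the fit left this pairing out. The 5 calls held in every alternative run, a block for culture among them.

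Knockdown against control in total lysate asks whether steady-state RNA of these genes differed after the Chtop siRNA. With 1 siRNA product, loss of Chtop and other effects of that siRNA cannot be told apart. Of 8 members, Ccnd3, Cdk4 and Cdkn2c rose and Cdkn1b fell, 3 higher and 1 lower, where 21.4% of 9237 genes were called higher and 22.6% lower. The median log2 fold change of the 8 was 0.17, against 0.01 over all genes. In either direction 4 of the 8 were called, beside 4057 of the 9237 genes, so the members' share lay near that of all genes. By role, a cyclin, its kinase and an inhibitor of that kinase rose, and the other inhibitor fell. Whether these changes belong together was not tested. No spike-in is named, and a change is therefore one relative to most other genes. Less RNA per cell and fewer cells cannot be told apart in such samples.

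Ccnd3 encodes cyclin D3 (ENSMUSG00000034165.16, chromosome 17, 47505051 to 47599691, plus strand, mm10, where GENCODE M21 lists 21 transcripts, 16 of them coding). In total lysate the mEx5 line had 87.2 and 94.7 CPM (counts scaled to the library total) in control and 125 and 140 in knockdown. The pEx5 line had 95.4 and 101 CPM in control and 135 and 157 in knockdown. Every knockdown library lay above every control library. Here and below, the share of all genes whose libraries separate in this way was counted only for the nuclear to cytoplasmic ratio. A lack of overlap within a fraction is therefore a description and not a trait shown to be particular to a member. The rise was 1.46-fold (log2 0.54, SE 0.061, edgeR adjusted p = 1.2e-04), with 0.53 in the mEx5 and 0.56 in the pEx5 line.

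Ccnd1, cyclin D1 (ENSMUSG00000070348.5, chromosome 7, 144929931 to 144939925, minus strand), had 159, 155, 166 and 147 CPM in the 4 control libraries of total lysate and 173, 187, 182 and 166 in knockdown. The groups overlapped. The difference was log2 0.16 (95% interval 0.01 to 0.30, edgeR adjusted p = 0.076), and with the replicate number as a block it was called (0.16, edgeR adjusted p = 0.013). It was also called without pEx5 control replicate 1 or pEx5 knockdown replicate 2 (edgeR adjusted p = 0.043 each).

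Cdk4, the kinase of both cyclins (ENSMUSG00000006728.12, chromosome 10, 127063534 to 127067920, plus strand), had 412, 432, 390 and 368 CPM in control total lysate and 516, 501, 478 and 449 in knockdown. The groups did not overlap. It rose 1.20-fold (log2 0.27, SE 0.065, edgeR adjusted p = 0.0083), by 0.26 and 0.27 in the mEx5 and pEx5 lines.

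Cdkn1b, the p27 inhibitor (ENSMUSG00000003031.14, chromosome 6, 134920401 to 134925513, plus strand), fell in total lysate. Control libraries held 107 and 104 CPM in the mEx5 line and 105 and 105 in the pEx5 line, and knockdown libraries 75.0, 78.4, 80.0 and 77.8 in the same order of lines. All 4 knockdown libraries lay below all controls, which spanned a narrow range. The fall was 1.37-fold (log2 -0.45, SE 0.053, edgeR adjusted p = 1.6e-04).

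Cdkn2c, the p18 inhibitor of CDK4 and CDK6 (ENSMUSG00000028551.14, chromosome 4, 109660876 to 109667189, minus strand), rose in total lysate. Its CPM were 18.9, 21.02, 19.7 and 18.97 in control and 26.1, 31.8, 27.8 and 29.2 in knockdown, with no overlap. The rise was 1.45-fold (log2 0.53, SE 0.080, edgeR adjusted p = 6.1e-04). Over all alternatives tried, the calls of Ccnd3, Cdk4, Cdkn1b and Cdkn2c in total lysate held, with a highest adjusted p of 0.0010, 0.038, 0.0014 and 0.0040.

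None of the pocket proteins was called in total lysate by edgeR without the block. Rb1 (ENSMUSG00000022105.6, chromosome 14, 73183673 to 73325822, minus strand) had 14.8 to 20.4 CPM in control and 17.4 to 22.5 in knockdown, a log2 difference of 0.18 (95% interval -0.03 to 0.40, edgeR adjusted p = 0.15). Rbl1 (ENSMUSG00000027641.13, chromosome 2, 157145893 to 157204534, minus strand) had 0.04 (-0.16 to 0.24), with -0.16 in the mEx5 and 0.25 in the pEx5 line. Its over-line value turned to -0.0012 without mEx5 knockdown replicate 2. Rbl2 (ENSMUSG00000031666.15, chromosome 8, 91070057 to 91123844, plus strand) had 14.6 to 17.7 CPM in control and 11.5 to 16.2 in knockdown. Its log2 difference was -0.29 (-0.56 to -0.01, edgeR adjusted p = 0.084), and it was called with the replicate block (edgeR adjusted p = 0.0037), without pEx5 knockdown replicate 2 (-0.38, edgeR adjusted p = 0.037) or without pEx5 rescue replicate 1 (edgeR adjusted p = 0.048).

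**Figure D2:**
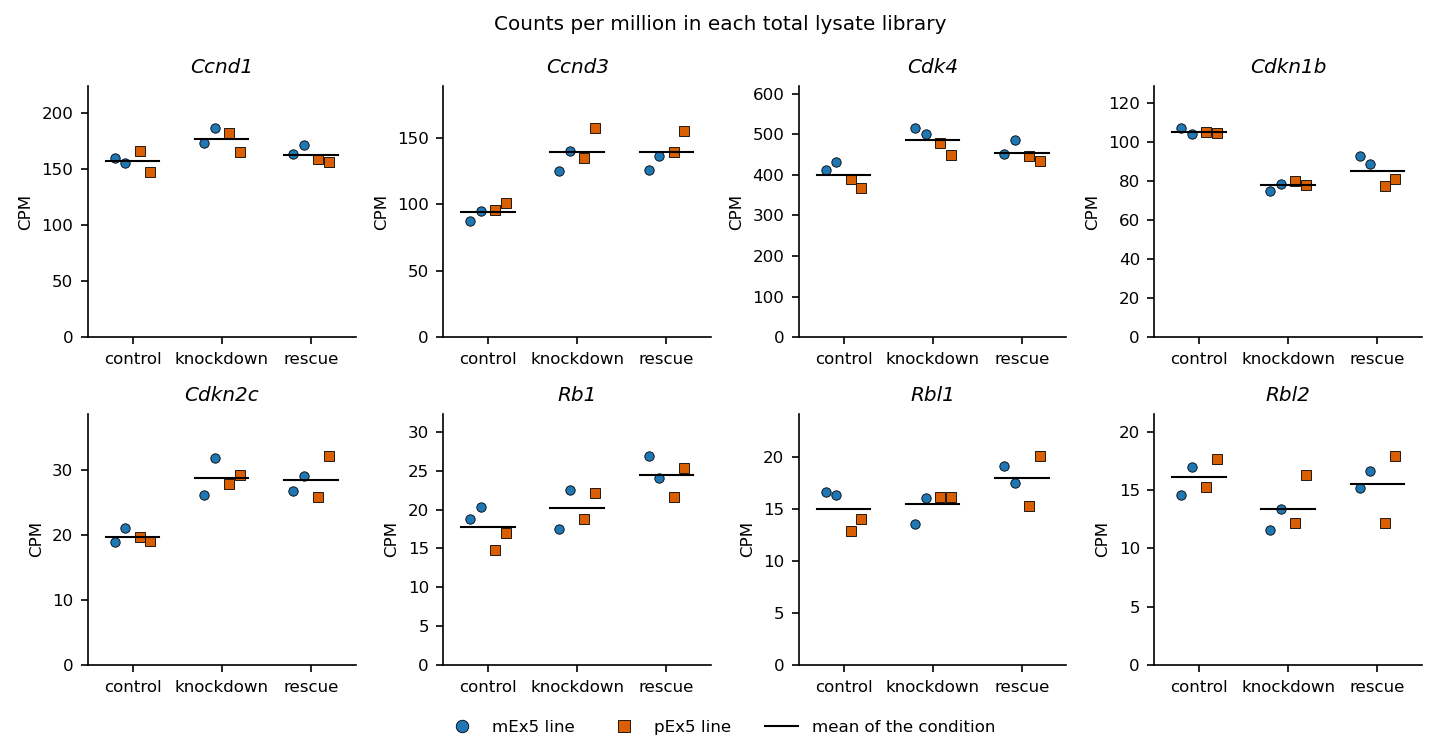
CPM (y axis, from 0) in each of the 12 total lysate libraries by condition, 1 panel per gene, with circles for the mEx5 line, squares for the pEx5 line and a bar at the condition mean. Ccnd3, Cdk4 and Cdkn2c lie higher and Cdkn1b lower in all 4 knockdown libraries than in all 4 controls, and rescue libraries of these genes lie on the knockdown side of all controls.

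The difference of the knockdown change between lines was called for 0 of 8 members, and for 0 of 9237 genes (0%), by edgeR, and at an unadjusted p under 0.05 for 1 member, Rbl1 (log2 0.40), and 112 genes. Its largest interval bound was 0.80, so differences up to that size lie within the intervals, and like values in both lines were not shown.

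In nuclei, Cdk4, Cdkn2c and Rbl1 rose and Cdkn1b and Rbl2 fell, 3 higher and 2 lower of 7 members tested, where 15.4% of 9239 genes were called higher and 16% lower. The members' median was -0.03, against 0.00 over all genes. Cdkn1b went from 89.7 to 99.2 CPM (range of 4 controls) to 70.6 to 75.0, a log2 change of -0.33 (SE 0.068, edgeR adjusted p = 0.0052). Rbl2, p130, went from 21.9, 26.3, 21.98 and 27.8 CPM to 14.9, 18.0, 15.4 and 20.97, with no overlap. Its change was -0.47 (SE 0.13, edgeR adjusted p = 0.022).

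Rbl1, p107, had nuclear CPM of 29.3 and 29.5 in mEx5 control and 32.1 and 28.2 in mEx5 knockdown. In the pEx5 line it had 24.4 and 26.8 in control and 36.1 and 38.9 in knockdown, so that the pEx5 groups stood apart and the mEx5 groups overlapped. The change over both lines was 0.33 (SE 0.080, edgeR adjusted p = 0.011), with 0.08 and 0.58 by line, and their difference of 0.49 was not called (unadjusted p = 0.011, edgeR adjusted p = 0.72). Cdk4 and Cdkn2c rose by 0.28 and 0.33 (edgeR adjusted p = 0.026 and 0.023). Ccnd1 had -0.03 (95% interval -0.23 to 0.18) and Rb1 -0.17 (-0.42 to 0.07), neither called. The calls of Cdkn1b and Rbl1 held without any 1 library. That of Cdk4 was lost without mEx5 control replicate 1, mEx5 knockdown replicate 1, pEx5 control replicate 2 or pEx5 knockdown replicate 1 (edgeR adjusted p up to 0.096). That of Cdkn2c was lost without mEx5 control replicate 1, mEx5 knockdown replicate 2, pEx5 control replicate 1 or 2, or pEx5 knockdown replicate 2 (up to 0.083). That of Rbl2 was lost without mEx5 control replicate 2, mEx5 knockdown replicate 1, pEx5 control replicate 2 or pEx5 knockdown replicate 1 (up to 0.091). The count of 5 was then 3 without mEx5 control replicate 1, mEx5 knockdown replicate 1 or pEx5 knockdown replicate 1, and 2 without pEx5 control replicate 2.

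In cytoplasm (n = 3 control and 4 knockdown libraries), Cdk4, Cdkn2c and Rbl1 rose and Cdkn1b fell, 3 higher and 1 lower of 7, where 19.8% of 9238 genes were called higher and 20.9% lower. Scaled by library totals alone, all genes split into 2277 higher and 1547 lower, against 1832 and 1931. The members' median was 0.17, against 0.00 over all genes. Cdkn1b stood at 170, 168 and 166 CPM in control and 129, 119, 126 and 110 in knockdown (log2 -0.52, SE 0.079, edgeR adjusted p = 4.2e-04). Whether the fall differed from that in nuclei was asked by the ratio, where it was not called.

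Cdkn2c rose in cytoplasm by 0.41 (edgeR adjusted p = 0.0044), Rbl1 by 0.28 (edgeR adjusted p = 0.029) and Cdk4 by 0.22 (edgeR adjusted p = 0.039). The calls of Cdk4 and Rbl1 were both lost without mEx5 control replicate 1 or 2 or mEx5 knockdown replicate 1 or 2, which left a count of 2, and that of Rbl1 also without pEx5 knockdown replicate 1. Ccnd1 had 0.13 (95% interval -0.03 to 0.30), Rb1 0.17 (-0.03 to 0.37) and Rbl2 -0.08 (-0.28 to 0.12), none called. Summed RPKM of the nuclear RNAs Malat1, Neat1 and Meg3 in these libraries was 19.8 to 27.2 in control and 26.2 to 36.8 in knockdown, against 223 to 302 in control nuclei, and its part in the cytoplasmic values was not tested.

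**Figure D3:**
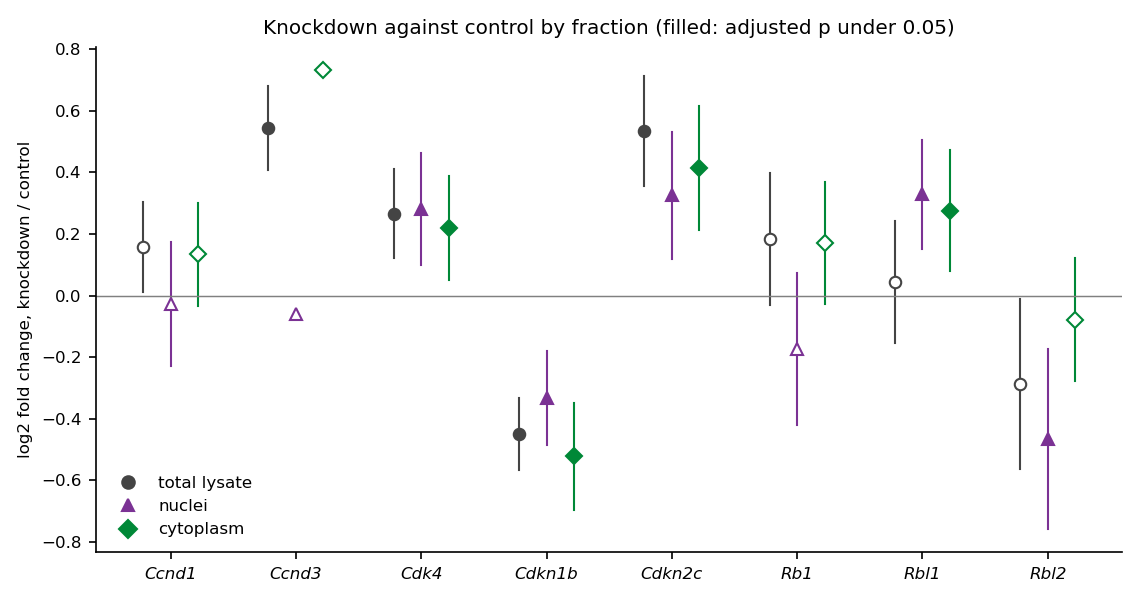
Log2 fold change of knockdown against control (y axis) for each counted gene in total lysate (circles), nuclei (triangles) and cytoplasm (diamonds), with 95% intervals and filled symbols where the adjusted p was under 0.05. Cdkn1b lies below 0 and Cdk4 and Cdkn2c above 0 in all fractions, and the nuclear and cytoplasmic points of Ccnd3 carry no interval because the gene was chosen by them.

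Ccnd3 was spread differently between fractions after knockdown, which is what it was picked for. In nuclei it had 79.4, 102, 89.8 and 109 CPM in control and 83.1, 96.4, 80.9 and 94.5 in knockdown, and these groups overlapped. In cytoplasm it had 73.1, 90.0 and 81.4 CPM in control and 127, 145, 130 and 159 in knockdown, with no overlap. The log2 differences were -0.06 in nuclei and 0.73 in cytoplasm, so the lower nuclear share went with higher cytoplasmic and overlapping nuclear values. The nuclear to cytoplasmic CPM ratio of a culture was 1.09, 1.13 and 1.10 in control and 0.655, 0.664, 0.622 and 0.594 in knockdown. The fitted change of the ratio was -0.78, with -0.63 in the mEx5 and -0.93 in the pEx5 line.

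Among the other 7 members, the knockdown change of the ratio was called by edgeR for 0, where 3.83% of 9239 genes were called higher and 1.31% lower (354 and 121 genes, and 206 and 411 when scaled by library totals alone). At an unadjusted p under 0.05, 2 of the 7 and 1918 genes passed, and DESeq2 called 0 of the 7. These were Rb1 at -0.33 (95% interval -0.63 to -0.04, edgeR adjusted p = 0.19) and Rbl2 at -0.38 (-0.73 to -0.03, edgeR adjusted p = 0.21). Culture ratios of Rb1 were 0.497, 0.557 and 0.496 in control and 0.358, 0.369, 0.346 and 0.466 in knockdown. Those of Rbl2 were 0.885, 0.885 and 0.809 in control and 0.573, 0.659, 0.604 and 0.748 in knockdown. For both, and for Ccnd1 (control 0.724 to 0.841, knockdown 0.566 to 0.721), every knockdown culture lay below every control culture, that is 3 of the 7 members, where 18.7% of 9239 genes showed this on the same scale and 7.84% the opposite. With the replicate number as a block, Rb1 and Rbl2 were called (both -0.36, edgeR adjusted p = 0.043 and 0.037), with 2089 genes called in place of 475. The remaining members lay between -0.15 for Ccnd1 and 0.20 for Cdkn1b, with a median of -0.08 for the 7 against 0.01 over all genes.

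**Figure D4:**
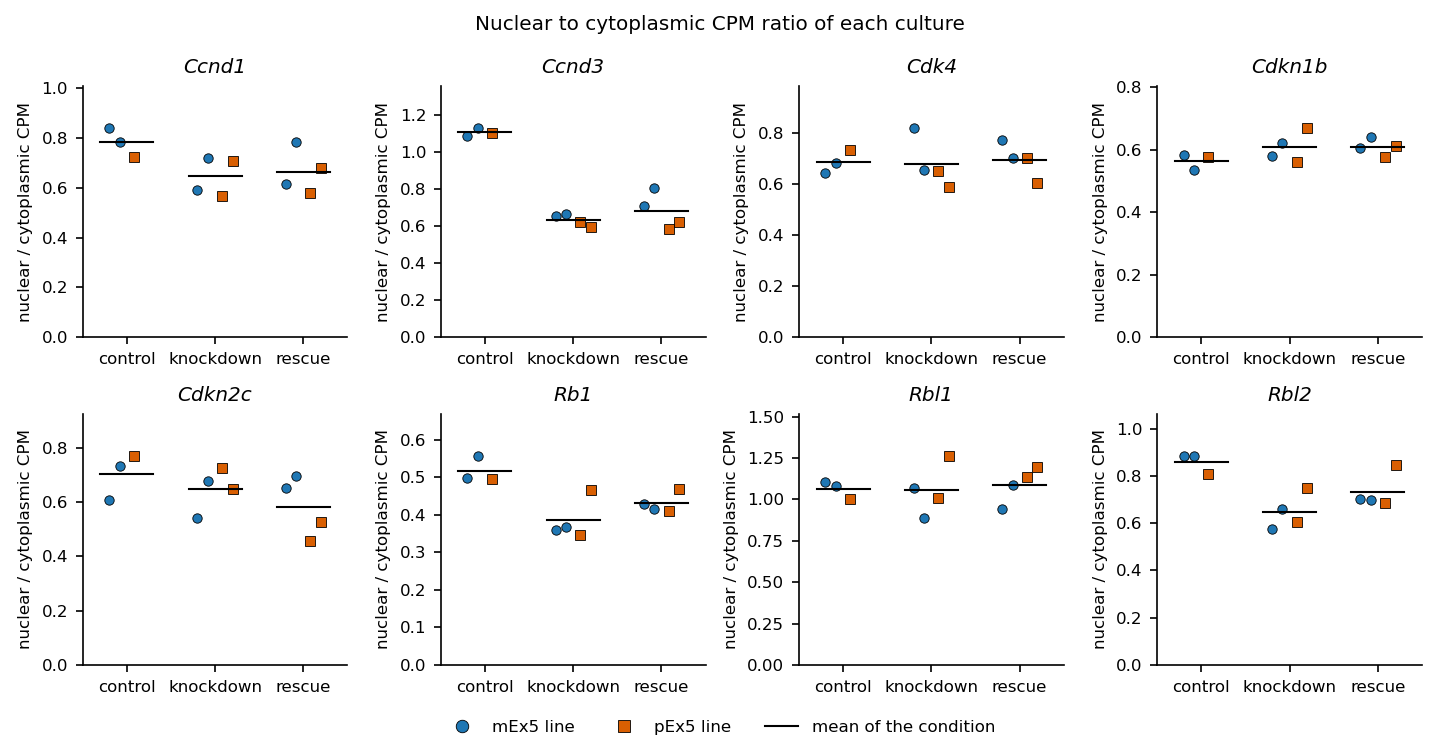
Ratio of nuclear to cytoplasmic CPM (y axis, from 0) of each culture by condition, 1 panel per gene, with circles for the mEx5 line, squares for the pEx5 line and a bar at the condition mean. The Ccnd3 ratio is 1.09 to 1.13 in control cultures and 0.594 to 0.664 in knockdown ones, and the ratios of Ccnd1, Rb1 and Rbl2 are also lower in all 4 knockdown cultures.

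The authors' deposited table gives its own log2 nuclear to cytoplasmic values. In the authors' deposited table Ccnd3 went from 0.12 in control to -0.68 in knockdown, a difference of -0.80, and carries the mark DECREASE that the authors set at 0.3, as do 13.4% of its 9239 genes. No other member is marked in the authors' deposited table. There Rbl2 has a difference of -0.24 and Rb1 of 0.00, where the fit above had -0.38 and -0.33. The authors' deposited table also marks 6 of the 8 counted members as overlapping Chtop iCLIP, with 48.5% of all its genes so marked, and Ccnd3 and Rb1 are those not marked.

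Rescue with either cDNA was compared with knockdown to ask whether Chtop brings the members back. Of the 8 members in total lysate and the 7 in nuclei, in cytoplasm and in the ratio, edgeR called 0 in each. Over all genes it called 0.0217% in total lysate, 0.0108% in nuclei, 0.0433% in cytoplasm and 0.0216% in the ratio. At an unadjusted p under 0.05, 2 members passed in total lysate (Rb1 and Rbl1), 0 in nuclei, 2 in cytoplasm (Ccnd1 and Cdkn2c) and 0 in the ratio, beside 660, 771, 886 and 249 genes, and DESeq2 called 0 members. Without cytoplasmic pEx5 knockdown replicate 2, 1305 genes were called in cytoplasm in place of 4, and still 0 members.

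After rescue in total lysate, the members differed in where they lay between knockdown and control. Ccnd3 had 125 and 136 CPM in mEx5 rescue and 139 and 155 in pEx5 rescue, all above the highest control. The difference from knockdown was log2 -0.01 (95% interval -0.15 to 0.12), and that from control 0.53. Cdkn2c had 26.7, 29.1, 25.7 and 32.2 CPM, a difference of -0.03 from knockdown (-0.20 to 0.15). Cdkn1b had 92.8 and 88.4 CPM in mEx5 rescue, between knockdown and control, and 77.5 and 81.2 in pEx5 rescue, within or next to the knockdown range. Its difference from knockdown was 0.11 (-0.0034 to 0.23). Mean CPM of Cdk4 was 400 in control, 486 in knockdown and 455 in rescue. That of Ccnd1 was 157, 177 and 162 in the same order, and that of Rbl2 16.1, 13.3 and 15.5. Rb1 lay above knockdown by 0.26 (95% interval 0.05 to 0.48, edgeR adjusted p = 0.68). These comparisons share the knockdown libraries, so the values stand side by side and are not independent.

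Against control, rescue in total lysate had Ccnd3 (1.44-fold, edgeR adjusted p = 1.9e-04), Cdkn2c (1.42-fold, edgeR adjusted p = 0.0011) and Rb1 (1.36-fold, edgeR adjusted p = 0.0053) higher and Cdkn1b lower (1.26-fold, edgeR adjusted p = 0.0011). That is 3 higher and 1 lower of 8, where 18.3% of genes were called higher and 19% lower. The members' median was 0.20, against 0.01 over all genes. Rb1 had 26.9, 24.05, 21.6 and 25.4 CPM in rescue, above all 4 controls. Cdk4 at 0.16 (95% interval 0.02 to 0.31) and Rbl1 at 0.25 (0.05 to 0.44) missed the threshold (edgeR adjusted p = 0.075 and 0.051), and both passed with the replicate block (edgeR adjusted p = 0.014 and 0.016). Rbl1 also passed without mEx5 knockdown replicate 2 or pEx5 rescue replicate 1 (edgeR adjusted p = 0.0499 and 0.020). Ccnd1 at 0.03 and Rbl2 at -0.08 were not called. The rescue comparison with control also differs in doxycycline and in Chtop above control level.

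**Figure D5:**
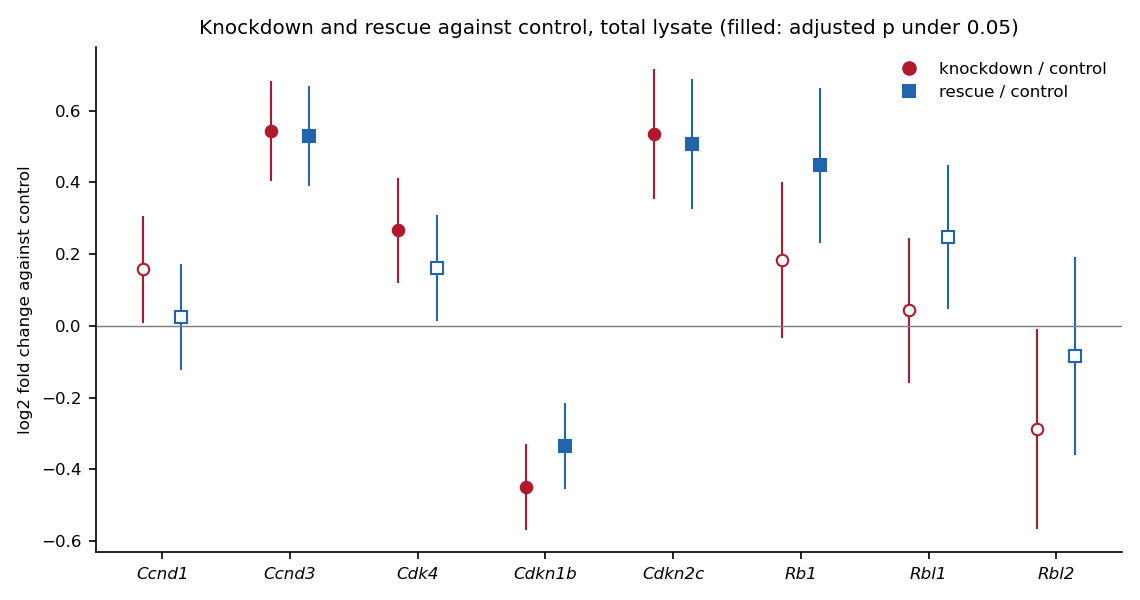
Log2 fold change against control (y axis) in total lysate for knockdown (circles) and rescue (squares) of each counted gene, with 95% intervals and filled symbols where the adjusted p was under 0.05. Rescue values of Ccnd3, Cdkn1b and Cdkn2c are called on the same side of 0 as knockdown, and the 2 comparisons share the control libraries.

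Mean nuclear CPM of Ccnd3 was 94.9 in control, 88.7 in knockdown and 97.8 in rescue, and its mean cytoplasmic CPM 81.5, 140.3 and 144.9. The rescue cultures had nuclear to cytoplasmic ratios of 0.709 and 0.805 in the mEx5 line and 0.584 and 0.625 in the pEx5 line. All 4 lay below the control cultures. The mEx5 ones lay above the knockdown range of their line, and the pEx5 ones just below and just above theirs (0.594 and 0.622). In the authors' deposited table the rescue changed the Ccnd3 ratio by 0.20 in the mEx5 and 0.04 in the pEx5 line.

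Whether the exon 5 isoforms rescued differently was asked by the difference of rescue between the lines. By edgeR, 0 members and 0% of genes were called in total lysate, nuclei and cytoplasm. At an unadjusted p under 0.05, 98, 26 and 288 genes and 0, 0 and 1 members passed. The 1 member was Cdkn2c in cytoplasm, at 42.5 and 38.0 CPM in pEx5 rescue against 26.8 and 32.2 in pEx5 knockdown, with mEx5 values of 31.9 and 33.5 against 35.5 and 32.99 (difference 0.48, 95% interval 0.13 to 0.83, edgeR adjusted p = 0.997). DESeq2 called 0, 0 and 7 genes and 0 members. The lowest interval bound of a member in total lysate was -0.79 and the members' median SE 0.14, so moderate isoform differences could go undetected with 2 libraries a group.

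Other genes of the pathway were counted from lists of known members, which were chosen with earlier results of these data known. In total lysate after knockdown, 4 of 10 E2F and DP factors rose and 2 fell, with a median of 0.16 against 0.01 over all genes. The E2F repressor E2f7 rose by 0.93 and the activators E2f2 and E2f1 by 0.65 and 0.55, while E2f5, a partner of the pocket proteins, fell by 0.29. Of 6 genes for E and A cyclins, their kinase Cdk2, its activating phosphatase Cdc25a and the small CDK-binding protein Cks1b, Cdk2 and Cdc25a rose, by 0.24 and 0.22, and 0 fell (median 0.21). Of 7 DREAM and MuvB genes 3 rose and 0 fell (median 0.18): the MuvB subunit Lin52 by 0.34, and Mybl2 and Foxm1, which replace the pocket proteins on MuvB later in the cycle, by 0.26 and 0.23. These shares stand beside the 21.4% and 22.6% of all genes called.

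Of 4 other inhibitors tested, Cdkn3 and Cdkn1a, p21, rose by 0.31 and 0.20, and the INK4 genes Cdkn2d and Cdkn2a had -0.25 and -0.23. Of 14 genes for turnover of cyclins and inhibitors, 1 rose and 4 fell (median -0.04). Skp2, the receptor through which p27 is ubiquitinated, rose by 0.30, and Cul4b, Fbxo4 and Ddb1 had -0.67, -0.66 and -0.33. Of 8 genes upstream of D cyclins, 1 rose and 3 fell (median -0.20): Max at 0.52, and Akt1, Stat3 and Mtor at -1.24, -0.95 and -0.53. None of the 3 subunits of the CDK-activating kinase was called. Of 22 other cyclins and kinases 8 rose and 3 fell (median 0.06), with Cdk8 at 0.49, Cdk12 at 0.43 and Ccnt1 at 0.35, which act on RNA polymerase II, and Cdk10 at 0.36.

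In all, 21 of the 74 genes of these lists rose and 14 fell in total lysate. In nuclei 18 rose and 10 fell, where 15.4% of all genes were called higher and 16% lower, and in cytoplasm 17 rose and 9 fell, where 19.8% and 20.9% were. Differences between fractions in these counts were not tested. E2F and DP factors rose in 4 of 10 cases in nuclei and in cytoplasm and fell in 0 and 1. Genes upstream of D cyclins fell in 3 of 8 cases in both fractions, and rose in 0 and 1. In the nuclear to cytoplasmic ratio 4 of the 74 genes were called higher and 0 lower, where 3.83% of all genes were called higher and 1.31% lower: Akt1 at 0.86, Mtor at 0.44, Cdk5 at 0.67 and Cdk11b at 0.58. Scaled by library totals alone, 3 were called higher and 1 lower, and Mtor (0.34, edgeR adjusted p = 0.069) was no longer called. The replicate block called 8 higher and 8 lower.

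By likeness over the 6 group means of log2 CPM in total lysate, given as a description among 9225 genes, the pattern of Ccnd3 was closest to Rtf1 (Pearson r = 0.999), Swap70 and Zfp768. Cdkn1b was closest to Ttc4 (r = 0.999), Man2a2 and Nr3c1. Cdkn2c was closest to Ccdc71l (r = 0.998), Gm48161 and Asb13. The 6 points share libraries and the knockdown contrast, so the values rank genes and test nothing.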

How the data were processed

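Poly(A) RNA-seq of 35 libraries was used as deposited. The submitters' processing notes name mm10, DESeq2 and Salmon 0.14.1 without saying what each did. The authors deposited whole-number counts for 9239 genes and, per the file headers, RPKM for 54393 genes. The log2 values of the authors' deposited table are cited only under that name. Of the RPKM columns, 1 has no sample among the labels and was not used. The members and gene lists were chosen with earlier results of these data known.

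Counts were fitted with edgeR 4.0.16 under R 4.3.3, per fraction and for nuclei with cytoplasm together: filterByExpr with a minimum count of 10 (2 genes removed in total lysate, 0 in nuclei, 1 in cytoplasm and 0 in the joint fit), TMM, group means, robust quasi-likelihood tests and Benjamini-Hochberg adjustment across every gene fitted, calling values under 0.05. An SE is the log2 fold change divided by the root of F. For the pEx5 cytoplasmic control, which has 1 library, the spread of the other groups was assumed. The scripts were tested on simulated counts. A marker gene of the list used is not reported here. All 10 members are named, and up to 4 called genes of each list by size of change.

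Replicate numbers come from the labels. Deviations from group means correlated between same-numbered libraries at 0.35 to 0.79 for total lysate, 0.52 to 0.72 in nuclei and 0.059 to 0.65 in cytoplasm. The medians were 0.58, 0.63 and 0.33. By a limit of 0.1 for every pair, the numbers pair libraries in total lysate and nuclei, and the lowest cytoplasmic value missed it. The main fit has no block, so its calls leave this pairing out, and the replicate block is given as an alternative. The joint fit of nuclei and cytoplasm likewise leaves out that both come from the same cultures. Alternatives were DESeq2 1.42.0, its size factors, library totals, no filter, a block for replicate number or for culture, 1 fit to all 35 libraries, and omission of single libraries. GENCODE M21 gave gene positions on mm10, and RefSeq gave promoters on GRCm38.p6.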

Additional observations from a re-analysis of the deposited data

How the results depend on the processing

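Counts of members called kept their size, within 1.5 times, under all alternatives run, with these exceptions. Leaving out single libraries gave 2 to 5 members called for knockdown in nuclei and 2 to 4 in cytoplasm. With the replicate block, 2 members were called for the knockdown change of the nuclear to cytoplasmic ratio in place of 0: Rb1 at -0.36 (edgeR adjusted p = 0.043) and Rbl2 at -0.36 (0.037). The replicate block also called Rb1 in cytoplasm at 0.20 and Rbl2 between control fractions at -0.26, and beside the calls given with the results it changed no other member's call. With library totals, the ratio change turned to -0.027 for Cdk4 and -0.034 for Rbl1. Values near 0 changed sign when libraries were left out: Rbl1 for knockdown in total lysate ran from -0.0012 to 0.085. In nuclei after knockdown Ccnd1 ran from -0.079 to 0.024 and Ccnd3 from -0.15 to 0.041. For rescue against knockdown in total lysate Ccnd3 ran from -0.057 to 0.030 and Cdkn2c from -0.093 to 0.030. For rescue against control Ccnd1 ran from -0.019 to 0.072 and Rbl2 from -0.21 to 0.024. The causes were not tested. Cdk4 in rescue against control was also called with library totals (0.18) and with all 35 libraries in 1 fit (0.18), and Rbl1 with the latter (0.27).

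Over all genes, the replicate block moved the calls from 2903 to 5123 in nuclei, from 475 to 2089 in the ratio and from 3442 to 5352 for rescue against control. For rescue against knockdown it gave 170, 632, 7 and 44 calls in total lysate, nuclei, cytoplasm and the ratio, where DESeq2 gave 22, 63, 21 and 4 and the fit without block 2, 1, 4 and 2. All 35 libraries in 1 fit gave 5 of these in total lysate and 37 in nuclei. The ratio had 783 calls with DESeq2 and 787 with all libraries in 1 fit, and 172 to 544 with 1 library left out. It fell by over 1.5 times without mEx5 knockdown cytoplasmic replicate 1 (172) or 2 (314), mEx5 control cytoplasmic replicate 1 (247), mEx5 control nuclear replicate 1 (247), mEx5 knockdown nuclear replicate 1 (288), pEx5 control nuclear replicate 2 (284) or pEx5 knockdown nuclear replicate 1 (264). DESeq2 called 7 genes for isoforms in cytoplasm, where it gave an adjusted p to 641 genes, and edgeR called 274 there without pEx5 knockdown replicate 2.

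Leaving out the lone pEx5 cytoplasmic control gives no value for contrasts that need it. The alternatives for RPKM were not run because Ccnd2 and Cdk6 lie under the filter of 0.1. With 2 libraries a group and medians of SE of 0.073 for members in total lysate and 0.12 in the ratio, small changes could go undetected in the main fit. That fit leaves the replicate pairing out, and the replicate block called some of them.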

Other observations

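Rbl1 and Rbl2 lay lower in total lysate than in either of the fractions made from the same cultures. In control libraries Rbl1 had 12.9 to 16.6 CPM in total lysate, 24.4 to 29.5 in nuclei and 24.3 to 27.3 in cytoplasm. Rbl2 had 14.6 to 17.7, 21.9 to 27.8 and 24.7 to 29.7 CPM. Over all 9239 genes, 16% lay below both fractions in every control library and 5.77% above both. On the RPKM scale Rbl1 again lay below both, at 5.29 to 7.02 against 7.69 to 9.36 and 9.98 to 11.2, and Rbl2 overlapped nuclei, at 4.28 to 5.05 against 4.81 to 5.98. The knockdown value of Rbl1 was 0.04 in total lysate, beside 0.33 in nuclei and 0.28 in cytoplasm, each from its own fit.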
